A study of Mus musculus with 2 samples.

Results

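Integrins are the receptors with which cells hold on to other cells and to the extracellular matrix, and 10 integrin genes were examined in the air pouch membrane. They were the leukocyte chains Itgal, Itgam, Itgax and Itgb2, the chains Itga4 and Itgb7, and the matrix-binding chains Itgb1, Itga5, Itgav and Itgb3. The members are every probe set that the annotation of the platform gives to 1 of these genes alone, which came to 28 of the 45101 probe sets on the array and to 10 of 18193 genes with a probe set of their own. The pouch is a space blown up with air beneath the skin of the back, and its lining was dissected away from the tissue around it. From fat and muscle mRNAs that varied between control membranes, the paper proposes that small remnants of both tissues stayed on. All mice were female Balb/C, 6 to 8 weeks old, and both groups carried a pouch raised with 2 ml sterile air and injected on day 7, as the design text of the series gives it. The paper's methods state another volume of air and another day. Control pouches received 1 ml PBS, and MSU pouches received 2 mg monosodium urate crystals, the crystals that cause gout, in 1 ml PBS. Membranes were taken 9 h later. Leukocytes free in the lumen had been washed out beforehand, as the paper's methods state. RNA of 3 mice was pooled in each group and each pool was hybridized to 1 Affymetrix Mo430_2 array, so the design holds no replicate, no spread between mice and no test, and every fold below compares 2 pools. Precision is limited by the number of arrays.

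Each integrin is a pair of 1 α chain and 1 β chain. The β2 chain (Itgb2, CD18) pairs with αL (CD11a, forming LFA-1), αM (CD11b, forming Mac-1) and αX (CD11c) on leukocytes, where these receptors hold the cell to ICAM-1 on endothelium and, for Mac-1 and αXβ2, bind complement fragments and fibrinogen. The α4 chain pairs with β1 to bind VCAM-1 and fibronectin, or with β7 to bind MAdCAM-1. The β1 chain (CD29) is made by nearly all cells, pairs with α5 to form the main fibronectin receptor, and has many other partners. The αv chain pairs with β3, β1, β5, β6 or β8 to bind vitronectin, fibronectin and latent TGF-β, and β3 also pairs with αIIb on platelets.

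Promoters are shown for Itgam, the member with the highest ratio, for Itgax, which shares its β chain and had a lower one, and for Itga4, the member with the lowest. A RefSeq table of the mouse build GRCm38.p6 held the 250 bases upstream of the annotated start for 7 of the 10 genes. Those of Itgam (chr7:128062390-128062639, + strand), Itgax (chr7:128129300-128129549, + strand) and Itga4 (chr2:79255176-79255425, + strand) are printed 5′ to 3′, with matches to 3 motifs in capitals. The motifs were GAGGAA (the core bound by the myeloid factor PU.1), GGGCGG (the GC box bound by Sp1) and TGANTCA (the site of AP-1), searched on both strands and chosen after the sequences had been seen. In capitals, TTCCTC and CCGCCC are the first 2 motifs read on the other strand.
Itgam: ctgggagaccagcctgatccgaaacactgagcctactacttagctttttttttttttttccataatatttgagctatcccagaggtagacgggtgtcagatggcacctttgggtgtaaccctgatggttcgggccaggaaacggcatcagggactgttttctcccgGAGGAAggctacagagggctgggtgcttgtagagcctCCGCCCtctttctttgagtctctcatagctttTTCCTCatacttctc
Itgax: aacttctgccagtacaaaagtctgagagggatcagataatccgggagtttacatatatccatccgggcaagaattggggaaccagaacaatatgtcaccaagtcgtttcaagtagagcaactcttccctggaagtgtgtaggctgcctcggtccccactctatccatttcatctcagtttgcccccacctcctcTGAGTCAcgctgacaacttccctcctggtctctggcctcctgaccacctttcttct
Itga4: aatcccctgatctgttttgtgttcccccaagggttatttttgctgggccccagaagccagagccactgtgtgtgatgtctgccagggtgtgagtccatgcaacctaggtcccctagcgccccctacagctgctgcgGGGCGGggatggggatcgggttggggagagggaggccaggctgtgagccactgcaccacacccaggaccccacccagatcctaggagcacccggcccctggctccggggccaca
In Itgam, GAGGAA was found at 2 places, 84 and 15 bases before the start, and GGGCGG at 1, 47 bases before it. In Itgax, TGANTCA was found once, 56 bases before the start. In Itga4, GGGCGG was found once, 114 bases before the start. Of the 7 promoters, 4 held GAGGAA, 4 held GGGCGG and 1 held TGANTCA, while 23.3%, 32.7% and 6.75% of 32851 mouse promoters of the same length held them. Those with GAGGAA were Itgam and the matrix-binding chains Itgb1, Itga5 and Itgav, and those without it were Itgax, Itga4 and Itgb7. No promoter was at hand for Itgal, Itgb2 or Itgb3. These matches are letters in a window and say nothing of binding in the membrane.

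Signals are linear intensities scaled by the authors to the same trimmed mean on both arrays, and a fold is given only where a probe set lay above the detection floor of both arrays, at 64.6 for the control pool and 74.1 for the MSU pool. By this floor, 15 of the 28 integrin probe sets could be measured in both pools, 1 only in the MSU pool and 12 in neither. Each of the 10 genes had a fold, read from its brightest probe set. Itgam, which codes for the α chain of Mac-1, was the only 1 of the 10 to reach 2-fold higher with MSU crystals, and 0 reached 2-fold lower. Of all 11155 genes measured, 3.70% reached 2-fold higher and 4.29% reached 2-fold lower. At 1.5-fold, a size chosen after the values had been seen, 5 integrin genes were higher (Itgam, Itgb7, Itgal, Itgb2 and Itgav) and 0 lower, beside 8.65% of measured genes higher and 14.4% lower. The log2 ratio of MSU over control was above 0 for 7 of the 10 integrin genes and for 4523 of 10045 genes with a fold (45.0%), and its median was 0.49 over the integrin genes and -0.05 over all genes.

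**Figure D1:**
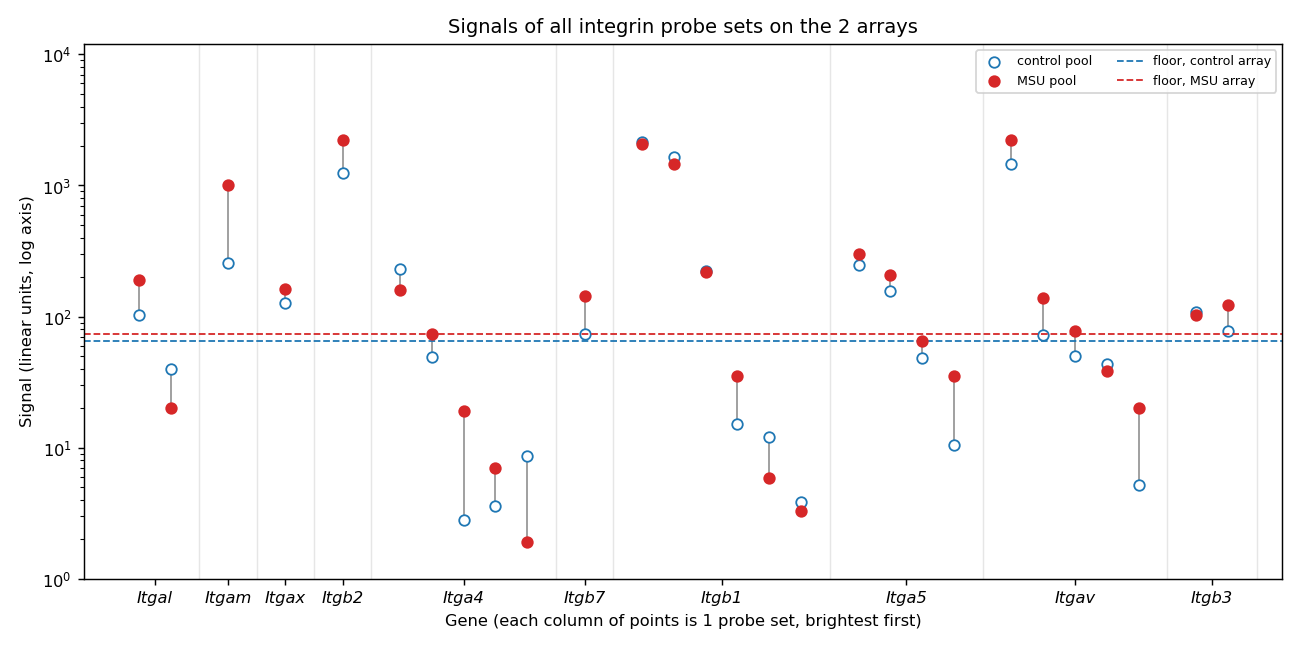
Signal of each of the 28 integrin probe sets (linear units on a log axis) in the control pool (open circles) and the MSU pool (filled circles), grouped by gene with the brightest probe set first; the dashed lines are the detection floors, 64.6 and 74.1. Itgam spans the widest gap among the probe sets above both floors, from 258 to 1014, while the circles of each measured Itgb1 probe set nearly coincide and 12 probe sets lie below the line of their array in both pools.

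All 4 β2 integrin genes had higher signals in MSU membranes as deposited, and 3 of them, all but Itgax, also after spike-in scaling. Itgb2, the shared β chain, had signals of 1243 in control and 2218 in MSU membranes, 1.79-fold higher (log2 ratio 0.84). Itgam had signals of 258 in control and 1014 in MSU membranes, 3.93-fold higher (log2 ratio 1.97). Its ratio was the 63rd highest of the 10045 genes with a fold, so 0.627% of genes had a ratio at or above it. Because RNA came from whole membranes, more cells of a type and more RNA per cell cannot be told apart for this or any other gene here.

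Itgal, the α chain of LFA-1, was nearer to its β chain than to Itgam. Its signals were 103 in control and 191 in MSU membranes, 1.85-fold higher (log2 ratio 0.89). A further Itgal probe set lay below both floors, at 39.6 and 20.1. Itgax, which codes for CD11c of dendritic cells and some macrophages, had signals of 127 and 164 (1.29-fold higher, log2 ratio 0.37), and 16.3% of genes had a ratio at or above that. So the α chains that share β2 spread over a wide range: relative to Itgb2, the log2 ratio of Itgam was 1.14 higher, that of Itgal 0.05 higher and that of Itgax 0.47 lower. For scale, where 1 gene had several probe sets with a fold, as 4002 genes did, their log2 ratios differed with an SD of 0.22 at the median and 0.51 at the 90th percentile. From Itgb2, Itgam stood beyond both values, Itgal within both, and Itgax beyond the median but within the 90th percentile. That spread is between probe sets of 1 gene, not between genes, and holds no variation between mice.

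The chains Itga4 and Itgb7, partners in the receptor for MAdCAM-1, differed in direction. Itga4 had signals of 230 in control and 160 in MSU membranes, 1.44-fold lower (log2 ratio -0.52), and 83.5% of genes had a ratio at or above it. It had the lowest ratio of the 10 integrin genes. Itgb7 had signals of 73.1 in control and 143 in MSU membranes, 1.96-fold higher (log2 ratio 0.97), with the control value close to that array's floor. The log2 ratio of Itga4 was 1.49 below that of Itgb7 and 0.47 below that of Itgb1, its other partner. Itga4 had 4 more probe sets, all below both floors, with signals from 1.90 to 73.0, so its value rests on 1 probe set, as do those of Itgam, Itgax, Itgb2, Itgal and Itgb7. T cells are the leukocytes best known for α4β7, and of the 8 T cell marker genes 7 were below both floors, among them Cd3d, Cd3e and Cd3g of the T cell receptor complex. The 1 measured, Cd8a, had signals of 98.2 and 97.8. Which cells gave the Itga4 and Itgb7 signals was not tested.

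Of the matrix-binding chains 2 had a log2 ratio above 0 and 2 below as deposited, with Itgav the highest. Itgb1 had signals of 2139 and 2058 in the control and MSU pools, 1.04-fold lower (log2 ratio -0.06). Its other measured probe sets gave log2 ratios of -0.17 (signals 1646 and 1460) and -0.04 (224 and 218), so the 3 lay close together with an SD of 0.07. Itga5, the fibronectin-binding partner of β1, had signals of 248 and 301, 1.22-fold higher (log2 ratio 0.28), and a further probe set with signals of 156 and 209 gave a log2 ratio of 0.42.

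Itgav, which codes for the αv chain, had signals of 1456 in control and 2235 in MSU membranes, 1.53-fold higher (log2 ratio 0.62). A dimmer probe set gave 72.2 and 138 (log2 ratio 0.93), and 1 that passed only the MSU floor gave 50 and 78.2, at least 1.21-fold higher. As deposited, the MSU value was thus the higher with each Itgav probe set that could be measured, while the least of these bounds would be lost after the spike-in scaling described below. Itgb3, the β chain of the vitronectin receptor, gave no such picture. Its brighter probe set had signals of 108 and 103 (1.05-fold lower, log2 ratio -0.07) and the other 77.1 and 122 (1.59-fold higher, log2 ratio 0.67), an SD of 0.52 between them. The probe sets of Itgb3 thus disagreed in sign, and no direction is given for this gene. The log2 ratio of Itgav was 0.67 above that of Itgb1, and it lay 0.68 above the brighter Itgb3 probe set but within 0.05 of the other.

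**Figure D2:**
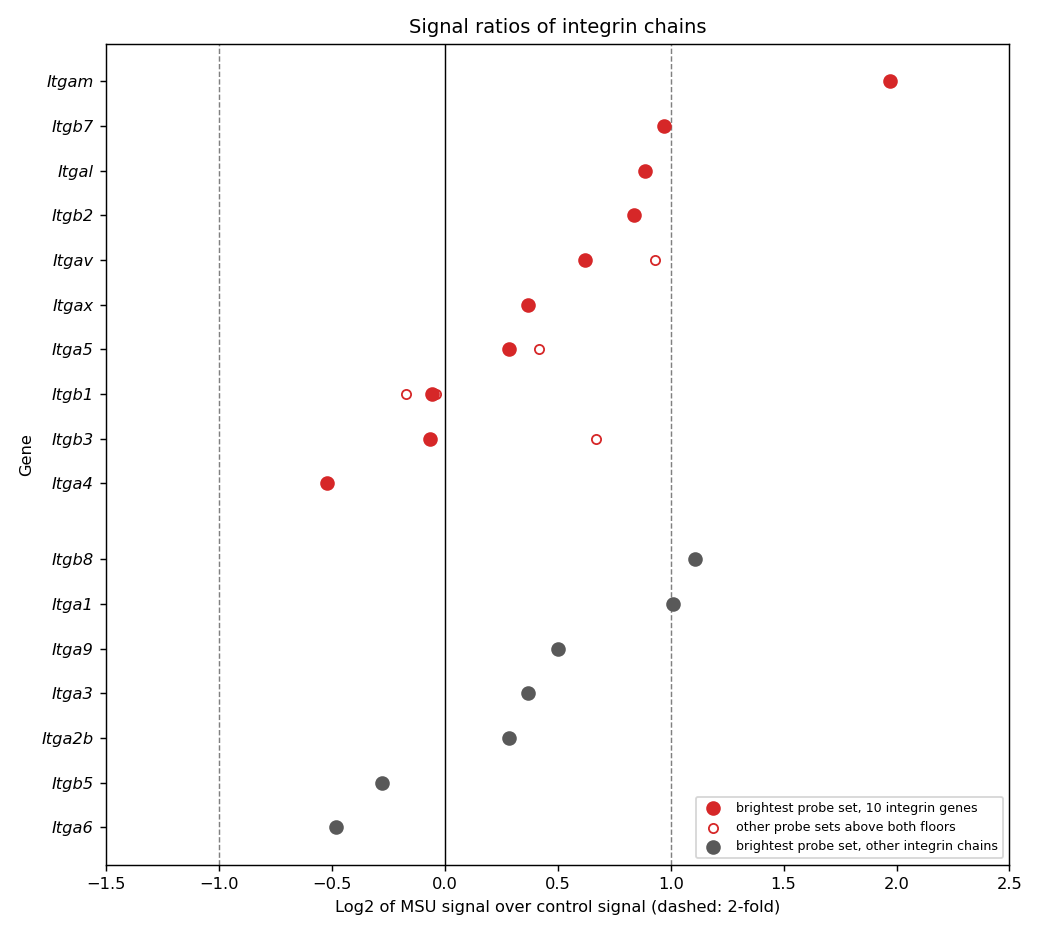
Log2 ratio of MSU over control for the 10 integrin genes and the other integrin chains with a fold, 1 row per gene. Filled points are the brightest probe set of a gene and open points the other probe sets of the 10 genes with a fold. Dashed lines mark 2-fold. Itgam stands at 1.97, Itgb7, Itgal, Itgb2 and Itgav lie between 0.62 and 0.97, and Itga4 is lowest of the 10 at -0.52, while the points of Itgb3 lie on both sides of 0.

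The scale of the arrays bears on the smaller values. The 18 probe sets of hybridization spike-ins, transcripts added in fixed amounts, were all brighter on the MSU array, with a median of 1.37-fold. Scaling both arrays on them lowers each log2 ratio by 0.46, which moves the median of all genes to -0.51 and that of the integrin genes to 0.04. Under that scaling Itgam remained 1.52 higher on the log2 scale and Itgal, Itgb2, Itgb7 and Itgav stayed above 0, at 0.43, 0.38, 0.51 and 0.16, whereas Itgax and Itga5 turned to -0.09 and -0.17. At 1.5-fold, 1 integrin gene (Itgam) was then higher and 1 (Itga4, log2 ratio -0.98) lower, beside 3.42% of measured genes higher and 43.5% lower. The integrin median lay 0.54 above that of all genes on the log2 scale, a distance that no constant scaling can change, and 0.37 above it with each floor added as a pseudocount and 0.42 above it with a stricter floor, where 7 of the 10 genes had a fold. Of genes past 2-fold, 46.4% were higher as deposited and 10.1% after spike-in scaling.

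**Figure D3:**
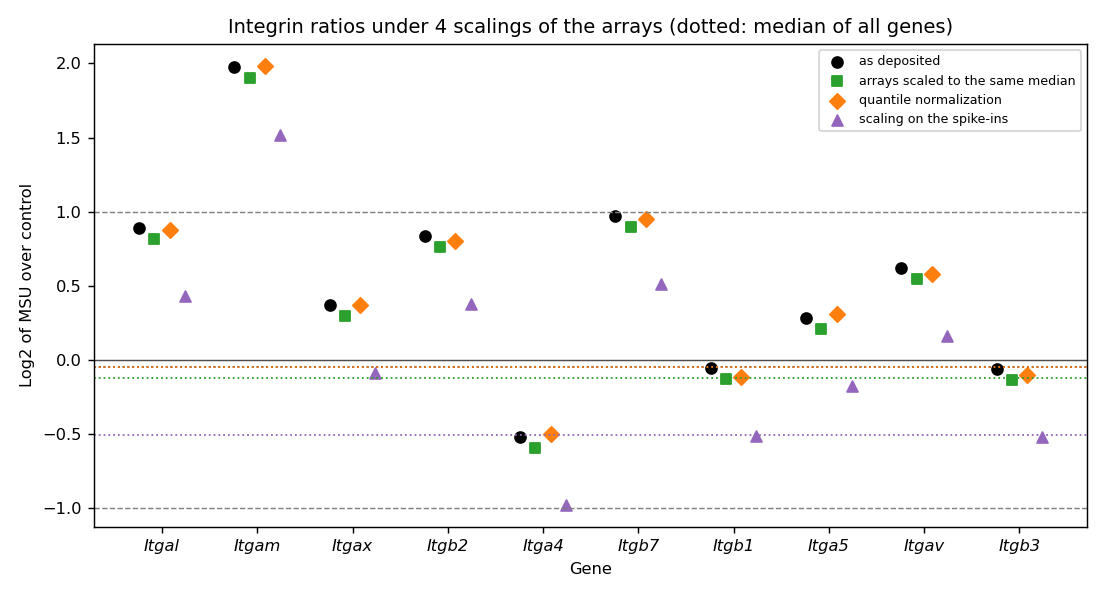
Log2 ratio of MSU over control (vertical axis) of the 10 integrin genes under 4 scalings of the arrays, 1 symbol per scaling, with the median of all genes under each as a dotted line and 2-fold as dashed lines. Itgam lies between 1.52 and 1.98 and Itga4 is below 0 under all 4, the spike-in symbols sit 0.46 below those of the deposited values, and Itgax and Itga5 have symbols on both sides of 0.

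Among 14 other integrin chains with a probe set of their own, 10 were measured and 2 reached 2-fold higher in MSU membranes as deposited, both from control signals near the floor. Itga1, whose product binds collagen as α1β1, had signals of 68.0 and 137 (2.01-fold higher). Itgb8, whose product pairs with αv and activates latent TGF-β, had signals of 70.0 and 151 (2.16-fold higher). Neither reached 2-fold after spike-in scaling, where their log2 ratios were 0.55 and 0.65. Itgb5, another partner of αv, was 1.21-fold lower (1397 and 1152), with log2 ratios from -0.67 to -0.20 over its 4 probe sets. Itga6, the α6 chain of laminin receptors, was 1.40-fold lower (341 and 244). Itgb6, an epithelial partner of αv, and Itgae, the other partner of β7, were below both floors, as were Itga8 and Itgb4.

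Of the ligands carried by cells, 7 of 10 were measured and Icam1 alone passed 2-fold. Icam1, the ligand of LFA-1 and Mac-1, had signals of 291 in control and 880 in MSU membranes, 3.03-fold higher. Vcam1, the ligand of α4β1, had signals of 543 and 582, 1.07-fold higher as deposited and lower after spike-in scaling. Madcam1, the ligand of α4β7, was below both floors (54.4 and 41.7). Thy1, which binds β2 and αv integrins, was 1.42-fold lower (1972 and 1389). The median log2 ratio of the 6 cell-borne ligands with a fold was 0.12.

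Of 17 matrix and plasma ligands with a probe set, 13 were measured, 1 (Thbs1) reached 2-fold higher and 1 (Ccn2) 2-fold lower, with a median log2 ratio of 0.21. After spike-in scaling 3 were 2-fold lower, Ccn2 with Ltbp1, which holds latent TGF-β in the matrix (1.99-fold lower as deposited), and Mfge8, which bridges dying cells to αv integrins (1.55-fold lower as deposited). Thbs1, thrombospondin-1, which binds αv and β1 integrins, had signals of 1101 and 5331, 4.84-fold higher, and its probe sets gave log2 ratios from 2.28 to 2.71. Ccn2, connective tissue growth factor, had signals of 2190 and 809, 2.71-fold lower. The ligands with the highest signals differed less. Fn1, the fibronectin bound by α5β1, had signals of 8391 and 10057 (1.20-fold higher as deposited, lower after spike-in scaling). Postn (periostin) was 1.15-fold lower, Tnc (tenascin-C) 1.22-fold lower, with its other probe set at a log2 ratio of 0.05, and Tgfbi 1.30-fold higher, the last also lower after spike-in scaling. Vtn, vitronectin, was near the floor at 80.6 and 89.5, and the fibrinogen genes Fga, Fgb and Fgg, bound by Mac-1 when deposited from plasma, were below both floors.

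Inside the cell, talin and kindlins bind β tails and switch integrins on, and Rap1 with its effectors calls them there. Of 12 such genes measured, Cyth1, which codes for the β2-binding protein cytohesin-1, was 2.06-fold higher (432 and 889) as deposited and short of 2-fold after spike-in scaling, and 0 were 2-fold lower. Fermt3, the kindlin of blood cells, had signals of 707 and 1219 (1.72-fold higher), whereas Fermt2, the kindlin of other tissues, had 1324 and 1193 (1.11-fold lower), with probe sets of both signs. Tln1 (talin-1) was 1.25-fold higher as deposited and lower after spike-in scaling. Rap1a and Rap1b, with signals from 2118 to 3590, stayed within 1.04-fold as deposited. The median log2 ratio of the 12 was 0.17.

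Of 5 proteins that bind integrin tails or sequester their activators, 1 reached 2-fold higher and 1 reached 2-fold lower. Cytip, a partner of cytohesin-1 in leukocytes, had signals of 344 and 1194 (3.47-fold higher), with log2 ratios from 0.57 to 1.86 over its probe sets. Itgb1bp1, which codes for ICAP-1, a protein of the β1 tail that competes with talin and kindlin, had signals of 322 and 148, 2.17-fold lower. Flna (filamin A) was 1.07-fold lower.

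Of 12 adaptors and kinases downstream of integrins, Fgr alone passed 2-fold. Fgr, a myeloid Src-family kinase that acts below β2 integrins, had signals of 188 and 448, 2.39-fold higher as deposited and short of 2-fold after spike-in scaling. Pxn (paxillin) was 1.33-fold higher as deposited and lower after spike-in scaling. Its probe sets differed in sign as deposited, with log2 ratios from -0.12 to 0.41. Vcl (vinculin) was 1.34-fold lower and Ilk (integrin-linked kinase) 1.41-fold lower, both parts of the adhesions that tie matrix integrins to actin. Parva, of the same list, was also 1.41-fold lower (440 and 311), with its other probe set at a log2 ratio of 0.09. Others of the list differed less or went the other way. Zyx was 1.05-fold higher as deposited and lower after spike-in scaling. Lims1 was 1.02-fold lower, with log2 ratios up to 0.57 over its probe sets. The kinase genes Src and Syk were 1.79-fold and 1.66-fold higher as deposited, with the other Src probe set at a log2 ratio of 0.24. As deposited, 7 of the 12 had a log2 ratio above 0 and 5 below, with a median of 0.05.

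**Figure D4:**
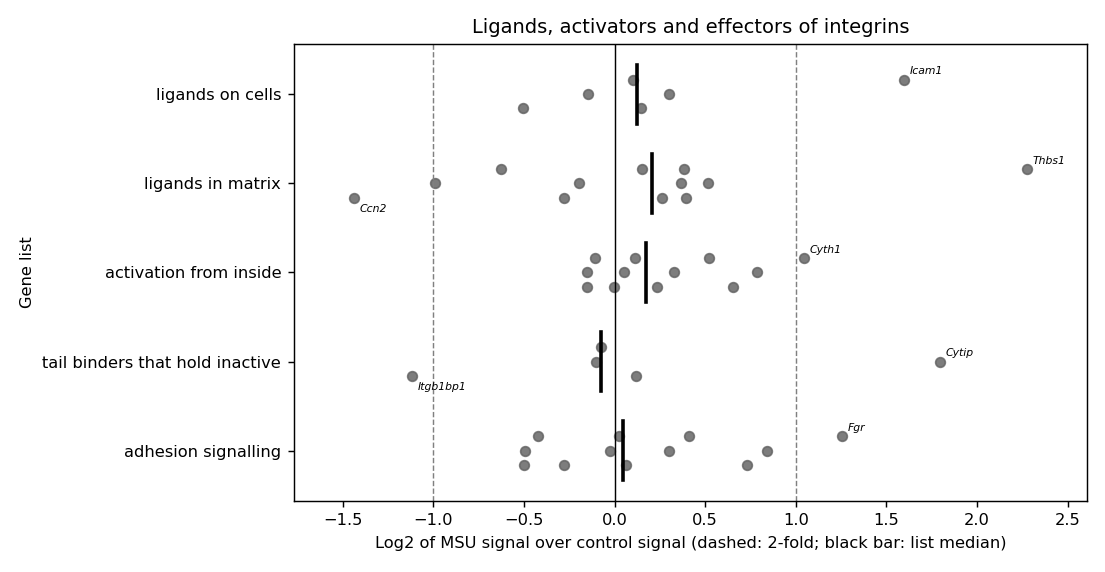
Log2 ratio of MSU over control for the ligands, activators, tail-binding proteins and signalling genes of integrins, 1 row per list and 1 point per gene with a fold, with the list medians as black bars and the names of genes past 2-fold. Thbs1, Cytip and Icam1 lie farthest to the right, at 2.28, 1.79 and 1.60, and Ccn2 and Itgb1bp1 farthest to the left.

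Marker genes of the cells that carry these receptors give the setting. Of 10 neutrophil markers measured, 9 reached 2-fold higher in MSU membranes by a fold or a bound, also after spike-in scaling, and Ltf was 1.45-fold lower. The median log2 ratio was 2.79 over the 8 with a fold, and the list summed to 2966 in control and 23956 in MSU membranes. S100a8, a calgranulin of neutrophils, had signals of 818 and 8677 (10.6-fold higher). Resident macrophage markers, with 11 measured, summed to 30488 and 29726, with a median log2 ratio of -0.12, 5 above 0 and 6 below. The list was split. Folr2, a folate receptor, was 2.05-fold lower and Cd68 1.72-fold lower, while the scavenger receptor gene Cd163 was 1.94-fold and the mannose receptor gene Mrc1 1.78-fold higher, and Adgre1 (F4/80) was 1.09-fold lower. Of 4 monocyte markers measured, 2 reached 2-fold higher, also after spike-in scaling, and the summed signal was 3047 and 4195 as deposited. These were Chil3 (3.40-fold higher) and F10 (at least 4.89-fold higher, below the control floor). Ccr2 was 1.10-fold and Plac8 1.25-fold higher as deposited, and both were lower after spike-in scaling by their brightest probe sets. The probe sets of Ccr2 gave log2 ratios from 0.115 to 0.679 as deposited, and the highest stayed above 0 after that scaling. Itgam and Itgb2 are carried by all 3 of these cell types, and the part of their numbers in the integrin ratios was not tested.

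For the remaining cell types, fibroblast markers summed to 52836 and 61038 with a median log2 ratio of 0.22 and endothelial markers to 1786 and 1622 with 0.03, as deposited. Both medians fell below 0 after spike-in scaling, and 0 of either list passed 2-fold under either scaling. Platelet markers, which bear on Itgb3, had a summed signal of 2481 and 4882, nearly all of it Pf4. Pf4 had signals of 2179 and 4565, 2.10-fold higher as deposited and short of 2-fold after spike-in scaling. Of the platelet markers with a fold, 2 had a log2 ratio above 0 and 2 below, with a median of 0.02. Gp1bb, Gp5 and Treml1 had log2 ratios of 0.11, -0.07 and -0.25. Itga2b, the platelet partner of β3, had signals of 151 and 184. Of 5 adipocyte markers measured 4 reached 2-fold lower, of 8 skeletal muscle markers 3, of 5 smooth muscle markers 2, and of 5 epithelial markers 3, with 0 at 2-fold higher. Summed over every listed gene with a probe set, measured or not, these lists had signals of 9088 and 2119, 36458 and 24748, 6806 and 3434, and 1569 and 556. Skeletal muscle markers did not all differ the same way. Acta1 (7311 and 8398) and the brightest Ttn probe set (3957 and 4266) were higher in MSU membranes as deposited, though lower after spike-in scaling. The probe sets of Ttn disagreed in sign, with log2 ratios from -0.56 to 0.34 as deposited. The other leukocyte lists were mostly near or below the floors, and their sums also include genes below it. Dendritic cell markers summed to 285 and 476 (3 measured), B cell markers to 213 and 149 (1 measured), natural killer cell markers to 189 and 161 (1 measured), mast cell markers to 749 and 423 (5 measured), T cell markers to 246 and 203 (1 measured) and eosinophil markers to 77 and 39.1 (0 measured). RNA integrity was alike in the 2 pools, where the ratio of 3′ to 5′ probe sets was 0.745 and 0.741 for Gapdh and 1.17 and 1.18 for Actb. The part of these tissue shares in the integrin ratios was not tested.

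**Figure D5:**
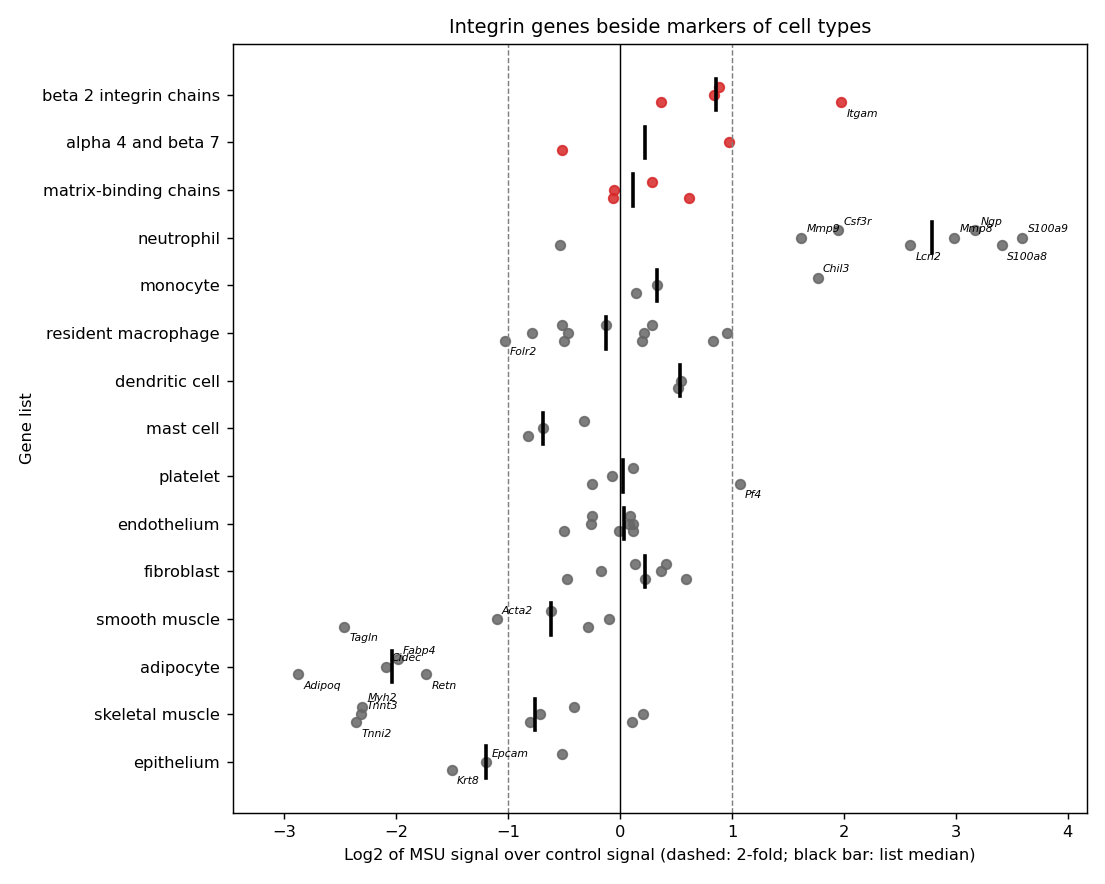
Log2 ratio of MSU over control for the 3 integrin groups beside the marker genes of each cell type, 1 row per list, 1 point per gene with a fold, black bars for list medians and dashed lines for 2-fold. The neutrophil markers centre at 2.79, the β2 integrins at 0.86 and the matrix-binding integrins at 0.11, and macrophage, fibroblast and endothelial markers centre between -0.12 and 0.22.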

How the data were processed

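Membrane RNA of 2 pools, control and MSU, each from 3 mice, was measured on 1 Mo430_2 array each. For each probe set the authors deposited a linear intensity from Affymetrix software (the submitters' processing notes name MAS5, with its version not given in the sources used here), scaled so that the mean without the highest and lowest 2% is 150 on both arrays. Of 45101 probe sets, 34958 had 1 gene in the platform annotation, 932 several and 9211 none, and 64 were controls. Probe sets of several genes were left out. Symbols were updated with RefSeq GRCm38.p6. The probe set of highest mean log2 signal stood for a gene.

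The floor of an array was the signal that leaves above it as many probe sets as the paper reports detected, and Affymetrix calls were not used. A fold is MSU over control with both signals above their floors, and a bound ("at least") divides by the other array's floor. Genes with either are called measured. With 1 array per group no p-value was computed. The 26 gene lists hold 203 symbols, 187 with a probe set. In the lists, each gene past 2-fold and up to 4 with the highest signal were to be named, and further list genes were named after their values were seen. Members and lists were chosen with earlier results of these data known. Alternatives were 3 scalings, 2 floors, a pseudocount, 2 choices of probe set and other sizes. The gene step was tested on simulated data. Python 3.11.15, numpy 2.4.6, pandas 2.3.3, scipy 1.17.1 and matplotlib 3.10.9 were used.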

Additional observations from a re-analysis of the deposited data

How the results depend on the processing

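Under each scaling, floor, pseudocount, choice of probe set and at 3-fold, Itgam was the integrin gene past the size in the higher direction and 0 passed it in the lower. With the size of 1.5-fold, 5 integrin genes were higher as deposited, and 965 of all genes higher and 1605 lower. That integrin count was 4 higher and 1 lower with arrays scaled to the same median, and 1 higher and 1 lower under spike-in scaling. It was 4 higher and 0 lower under quantile normalization and also with the stricter floor, where 7 genes had a fold. All-gene shares at 1.5-fold are given only as deposited and under spike-in scaling, so the other integrin counts have no share beside them. At 2-fold, 372 of all genes were higher and 580 lower with arrays scaled to the same median. These counts were 405 and 468 under quantile normalization and 338 and 370 with the stricter floor. Scaling on the spike-ins moved the integrin median log2 ratio to 0.037 and left 200 of all genes higher and 1787 lower at 2-fold, where the deposited scaling gave 413 and 478. Without a floor 1623 genes were higher and 1724 lower, with each floor as a pseudocount 218 were lower, and at 3-fold 164 were higher and 80 lower. Scaling to the same median gave 39.1% of genes past 2-fold as higher and the pseudocount 60.4%. The sign turned for Itgax and Itga5 under spike-in scaling, and for Itgb3 with the pseudocount (0.04) and with the median over its probe sets (0.30). The signal over background limits Itgb7, Itgb3 and Itgal most, since their control signals lay near the floor. With 1 array per group no replicate could be left out and no paired analysis was possible.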
